A study of Mus musculus with 288 samples.

Results

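The cryptochromes Cry1 and Cry2 are the 2 genes described here, out of 19938 genes measured by expression arrays in 12 mouse tissues. They were chosen by their symbols: each is represented by the probe set annotated to that symbol alone, and neither had a further one. Cry1 was read by probe set 10371400 (chromosome 10, from 85131700 to 85185054) and Cry2 by probe set 10485170 (chromosome 2, from 92403646 to 92434085, both in build GRCm38.p6). The mice were of the strain C57/BL6, were kept for 1 week in 12 h of light and 12 h of dark, and were then held in constant darkness. Every array carried RNA pooled from 3 mice, so differences between animals were averaged before measurement. Age is not given in the labels used here. The tissues were 3 brain regions (hypothalamus, brainstem, cerebellum), white and brown adipose, liver, kidney, lung, heart, aorta, adrenal gland and skeletal muscle. Each had 24 arrays at steps of 2 h between CT18 and CT64, in circadian time (CT). CT counts hours of the animals' internal day, in which CT12 is when darkness used to begin, and a time of day was therefore sampled on each of 2 days with no replicate within a day.

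Cryptochromes are repressor proteins of the circadian clock, the gene circuit that keeps daily time in most cells. The activators CLOCK and BMAL1 bind E-box sequences and switch on the Period and Cryptochrome genes, whose proteins return to the nucleus together and shut the activators off. Cry1 is known as the later and stronger repressor of the pair, and its gene is also held down by the REV-ERB receptors, which act through ROR elements. Loss of Cry1 is known to shorten the daily period of mouse behaviour and loss of Cry2 to lengthen it.

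The promoters of the 2 genes are shown because E-boxes are the sequences through which the clock's activators are known to drive them. Each runs from 250 bases before to 50 bases after the RefSeq start of the gene in GRCm38.p6, on the minus strand, at chr10:85185005-85185304 for Cry1 and chr2:92434020-92434319 for Cry2. Capitals mark matches to the E-box CACGTG and to the variant CACGTT, which reads AACGTG on the other strand.
Cry1: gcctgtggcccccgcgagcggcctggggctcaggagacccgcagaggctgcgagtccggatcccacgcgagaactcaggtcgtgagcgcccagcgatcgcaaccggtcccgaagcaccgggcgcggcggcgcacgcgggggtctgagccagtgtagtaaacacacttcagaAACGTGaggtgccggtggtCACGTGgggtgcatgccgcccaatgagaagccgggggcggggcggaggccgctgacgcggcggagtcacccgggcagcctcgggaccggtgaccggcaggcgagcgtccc
Cry2: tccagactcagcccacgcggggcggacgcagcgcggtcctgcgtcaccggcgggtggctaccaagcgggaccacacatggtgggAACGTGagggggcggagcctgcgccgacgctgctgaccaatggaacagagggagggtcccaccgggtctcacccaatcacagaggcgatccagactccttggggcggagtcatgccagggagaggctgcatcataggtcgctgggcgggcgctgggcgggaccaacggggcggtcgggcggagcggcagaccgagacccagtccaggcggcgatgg
The Cry1 window held a CACGTG that begins 60 bases before the start and an AACGTG that begins 79 bases before it. The Cry2 window held an AACGTG that begins 166 bases before the start and no CACGTG. On either strand, CACGTG was present in 7.15% of 32851 promoter windows of the same length, CACGTT in 4.68% and both in 0.414%. The D-box TTANGTAA (in 2.32% of windows) and the ROR element core AGGTCA (in 16.3%) matched neither window, which says only that these letters are not within it. A match is a description of the letters and was not tested for binding.

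Cry1 cycled in 11 tissues and Cry2 in 10, and in all 10 tissues where both cycled Cry2 peaked first and Cry1 hours later. The wave was a cosine of 24 h fitted to the log2 intensities of each tissue, and it is called where limma's moderated F test, with Benjamini-Hochberg adjustment across the genes of a tissue, gave an adjusted p under 0.05. The share of all genes called was 1.8% in hypothalamus, 4.78% in brainstem, 4.85% in white adipose, 5.09% in aorta, 5.12% in skeletal muscle, 5.49% in cerebellum and 5.89% in adrenal gland. It was 8.64% in heart, 16.5% in brown adipose, 20.9% in lung, 25.8% in kidney and 26.8% in liver. Waves in at least 10 tissues were found for 0.236% of genes and in at least 11 for 0.145%. Since a time point had 1 array, p-values here reflect how far pools scatter about the wave. That scatter holds differences between animals only as averaged over 3 mice, and gives no spread between single mice.

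**Figure D1:**
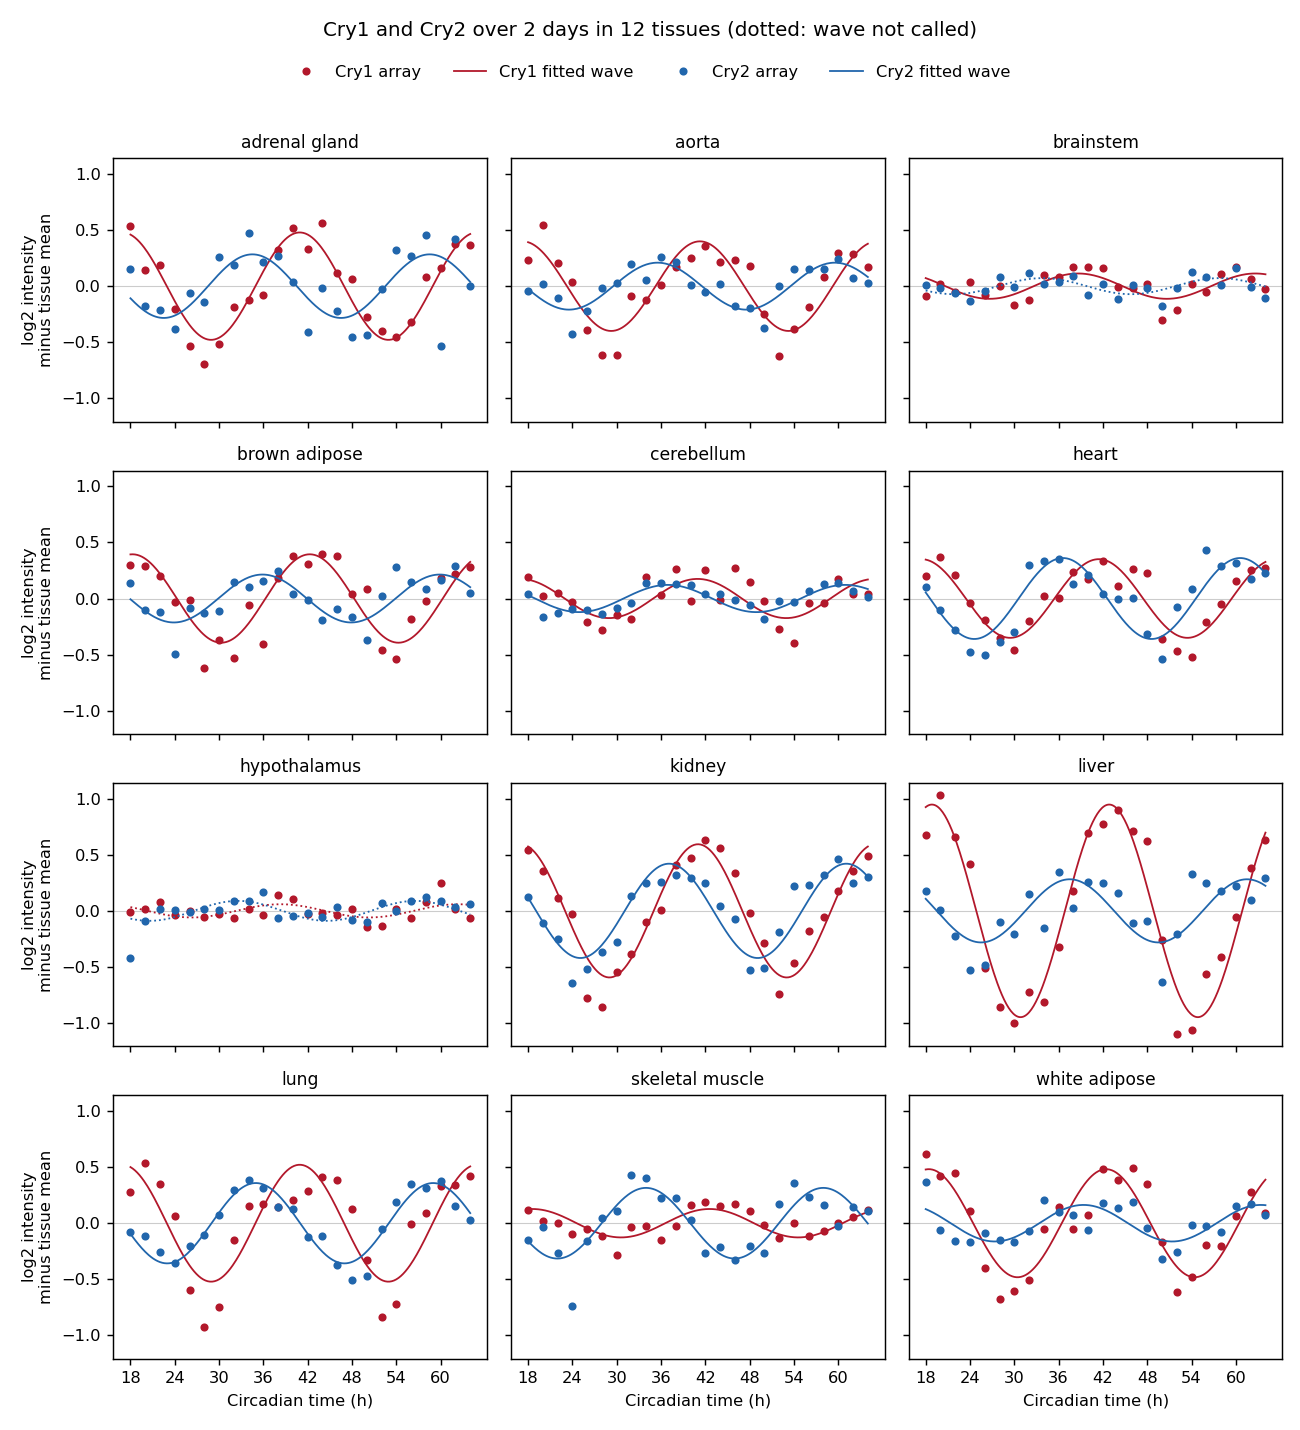
Each panel is a tissue, with circadian time in hours on the x axis and log2 intensity minus the tissue's mean on the y axis. Points are the 24 arrays of Cry1 (red) and Cry2 (blue) and lines are the fitted 24 h waves, dotted where not called. The Cry1 wave in liver is the tallest, at 3.72-fold, and both lines are nearly flat in hypothalamus.

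Cry1 swung most in liver. Its log2 intensity there ran from 7.34 at CT52 through a median of 8.50 to 9.47 at CT20. The lowest arrays of the 2 days, at CT30 (7.44) and CT52, and the highest, at CT20 and CT44 (9.34), were each about a day apart. The fitted fold from trough to peak was 3.72 (95% interval 3.18 to 4.37, adjusted p = 4.25e-11), and the wave took 92.4% of the variance of the 24 arrays.

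Kidney followed, where Cry1 ran from 6.25 at CT28 through 7.10 to 7.74 at CT42, a fitted 2.28-fold (2.03 to 2.56, adjusted p = 6.05e-11). In lung it ran from 7.02 at CT28 through 8.10 to 8.48 at CT20, 2.06-fold (1.72 to 2.47, adjusted p = 3.88e-06). The Cry1 profile in lung was not symmetric: arrays from CT34 to CT46 stayed between 8.09 and 8.36, while the troughs at CT28 and CT52 (7.11) were narrow. White adipose (1.95-fold), adrenal gland (1.94-fold), aorta (1.74-fold), brown adipose (1.73-fold) and heart (1.63-fold) formed a middle range, with adjusted p-values from 4.49e-08 to 1.49e-05.

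The 3 brain regions and skeletal muscle had the smallest Cry1 waves. In cerebellum the fold was 1.27 (1.16 to 1.40, adjusted p = 0.00544), in skeletal muscle 1.19 (1.11 to 1.28, adjusted p = 0.00778) and in brainstem 1.17 (1.08 to 1.26, adjusted p = 0.0307). The call in brainstem was lost on ranks (adjusted p = 0.140) and when any of 7 arrays was left out, those of CT30, CT38, CT40, CT42, CT50, CT52 and CT60 (up to 0.0785), and the call in cerebellum was lost on ranks (0.0576). In hypothalamus Cry1 ran only from 7.27 at CT50 through 7.41 to 7.67 at CT60, a fold of 1.09 that did not pass (1.02 to 1.16, adjusted p = 0.299).

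Cry2 folds spanned a narrower range over the tissues than those of Cry1. The largest was in kidney, from 7.22 at CT24 through 7.999 to 8.34 at CT60, a fitted 1.79-fold (1.61 to 2.00, adjusted p = 1.11e-08). Heart reached 1.65-fold (1.47 to 1.86, adjusted p = 2.47e-06), with arrays from 7.79 at CT50 through 8.39 to 8.76 at CT56. Lung reached 1.64-fold (1.53 to 1.77, adjusted p = 1.65e-10), from 8.64 at CT48 through 9.14 to 9.53 at CT34, and there the wave took 89.7% of the variance, the most of any Cry2 wave.

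In skeletal muscle Cry2 moved more than Cry1. Cry2 ran from 7.87 at CT24 through 8.65 to 9.04 at CT32, a fitted 1.55-fold (1.36 to 1.76, adjusted p = 0.000150), while Cry1 ran from 7.61 at CT30 through 7.89 to 8.09 at CT42. In these arrays the mean of 7 lymphocyte markers, all of those measured, lay at a median of 5.67 (lowest 5.52) and at 6.996, 7.24, 7.20, 6.72 and 7.40 at CT22, CT24, CT42, CT44 and CT46. Adipocyte markers (7.72 to 9.75) and neuron markers (6.11 to 7.58) varied as widely and were highest at CT24, the array with the lowest Cry2 value, whose median correlation to the others was 0.986 against 0.992. With the lymphocyte mean as a covariate the folds were 1.19 for Cry1 and 1.35 for Cry2 and neither call held (adjusted p = 0.0832 and 0.134). Without those 5 arrays Cry1 missed (1.18-fold, adjusted p = 0.0699) and Cry2 passed (1.42-fold, adjusted p = 0.00760). The part of adipocytes and neurons in the result was not tested.

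In adrenal gland and liver the Cry2 folds were both 1.48 (adjusted p = 0.0240 and 0.00107), and in brown adipose and aorta both 1.34 (0.000360 and 0.000270). The adrenal array of CT60 stood apart from its tissue, with a median correlation to the others of 0.968 against 0.989, and held the lowest Cry2 value there, 7.56, between 8.55 at CT58 and 8.52 at CT62. Without it the adrenal fold was 1.64 (adjusted p = 5.51e-05), while without CT34 or CT58 the call was narrowly lost (adjusted p = 0.0511 and 0.0505). White adipose had 1.25-fold (adjusted p = 0.0171), lost on ranks (0.0707), and cerebellum 1.18-fold (adjusted p = 7.18e-05). Cry2 did not pass in brainstem (1.10-fold, adjusted p = 0.0707) or hypothalamus (1.13-fold, adjusted p = 0.162). The brainstem wave passed with array weights (0.0487), over genes above the tissue median alone (0.0429) and after quantile normalization over all arrays (0.0167).

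**Figure D2:**
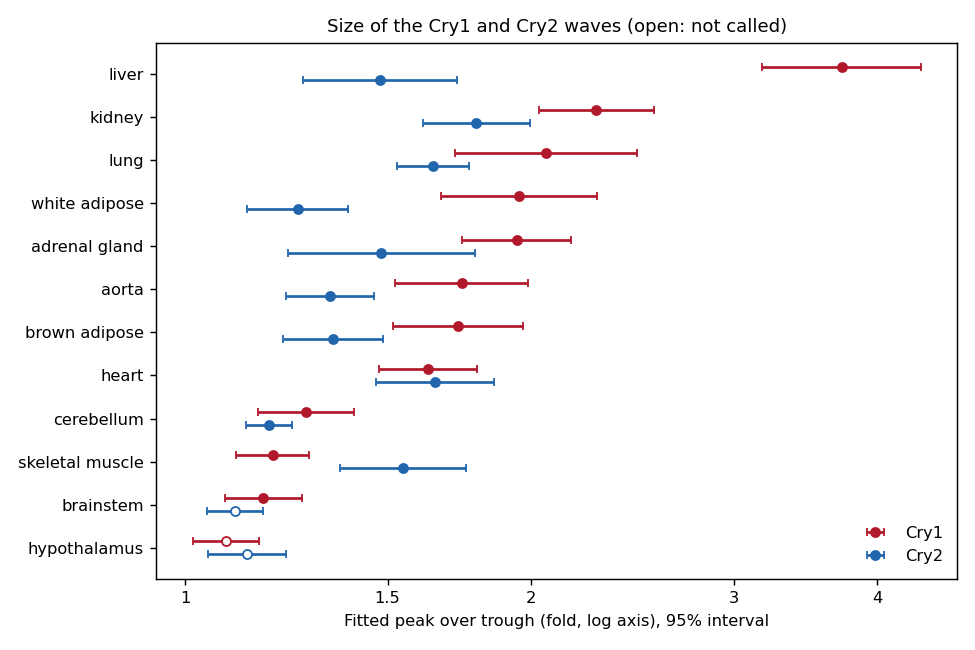
The x axis gives the fitted peak over trough as a fold on a log axis, with 95% intervals, for Cry1 (red) and Cry2 (blue) in each tissue, ordered by the Cry1 fold. Open circles mark waves that were not called. Cry1 ran from 1.09-fold in hypothalamus to 3.72-fold in liver, and Cry2 from 1.10-fold in brainstem to 1.79-fold in kidney.

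On the same arrays, the log2 range of the wave was larger for Cry1 than for Cry2 in 7 tissues, with an interval of the difference above 0. They were adrenal gland, aorta, brown adipose, kidney, liver, lung and white adipose, and the difference was greatest in liver, at 1.33 log2 units (0.993 to 1.67). In skeletal muscle alone Cry2 had the larger range, by a Cry1 minus Cry2 difference of -0.38 (-0.61 to -0.15). The interval held 0 in the 4 others, heart, cerebellum, brainstem and hypothalamus. The fold of Cry1 across the 12 tissues, on the log2 scale, followed that of Arntl, the gene of BMAL1, with a Pearson correlation of 0.824, and that of Cry2 with 0.728. Cry1 and Cry2 folds correlated with each other at 0.540. These 3 correlations describe 12 points in which both genes come from the same arrays.

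Cry1 peaked around the middle of the subjective night in most tissues. Its fitted peak had a median of CT17.3 over the 11 tissues and an SD of 1.17 h. It lay at CT16.9 in adrenal gland, lung and cerebellum (SE 0.305, 0.469 and 0.746 h), CT17.0 in kidney (0.261 h), CT17.3 in aorta (0.446 h) and CT17.4 in heart (0.379 h). The peaks were later in brown adipose (CT18.3, SE 0.445 h), white adipose (CT18.4, 0.433 h), skeletal muscle (CT18.6, 0.771 h) and liver (CT18.8, 0.224 h). Brainstem was the earliest at CT14.6, with the widest error among called waves (0.920 h).

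Cry2 peaked near the turn from subjective day to night, with a median of CT12.2 over 10 tissues and an SD of 1.60 h. Skeletal muscle (CT9.97, SE 0.538 h), adrenal gland (CT10.5, 0.879 h), lung (CT10.97, 0.268 h), aorta (CT11.5, 0.565 h) and brown adipose (CT11.9, 0.629 h) came before CT12. Heart (CT12.6, 0.439 h), cerebellum (CT12.9, 0.515 h), kidney (CT13.1, 0.343 h) and liver (CT13.5, 0.735 h) came after it, and white adipose was the latest at CT15.4 (0.827 h).

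**Figure D3:**
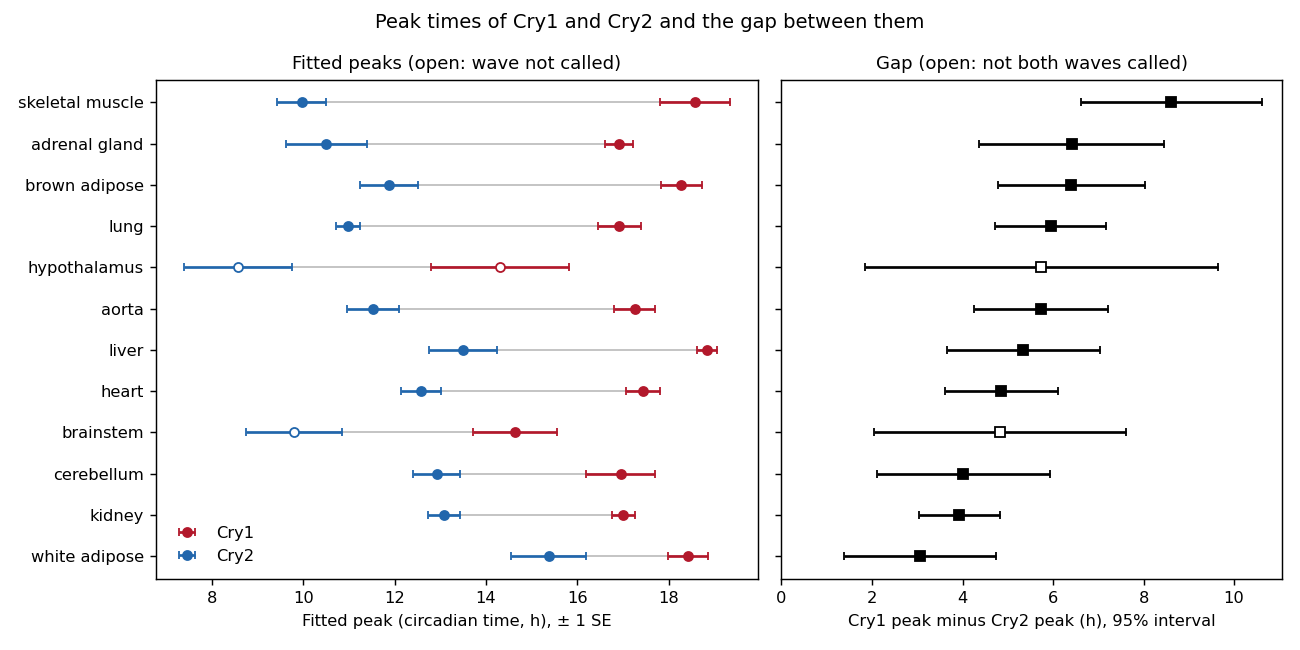
The left panel gives the fitted peak in circadian time with its standard error for Cry1 (red) and Cry2 (blue), and the right panel the Cry1 peak minus the Cry2 peak in hours with its 95% interval. Tissues are ordered by this gap, from 3.05 h in white adipose to 8.61 h in skeletal muscle, and open symbols mark waves that were not called.

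The Cry1 peak followed that of Cry2 by a median of 5.54 h (mean 5.43 h, SD 1.58 h) over the 10 tissues in which both waves were called. White adipose had the shortest gap, 3.05 h (95% interval 1.38 to 4.73 h), followed by kidney with 3.93 h (3.03 to 4.82 h) and cerebellum with 4.02 h (2.10 to 5.94 h). Heart had 4.86 h, liver 5.35 h, aorta 5.73 h, lung 5.94 h, brown adipose 6.40 h and adrenal gland 6.41 h. Skeletal muscle had the widest gap, 8.61 h (6.62 to 10.6 h), and its interval lay wholly above those of white adipose, kidney, cerebellum and heart. Both skeletal muscle calls were lost with the lymphocyte covariate, under which the gap was 8.25 h (5.68 to 10.8 h), and CT18 to CT40 alone gave 7.19 h (SE 1.41 h). Fits to brainstem and hypothalamus, where not both waves were called, gave 4.83 h (2.04 to 7.61 h) and 5.74 h (1.83 to 9.65 h). The interval lay above 0 in all 10 tissues with both waves called. It also did so in the fits to brainstem and hypothalamus, but the peak of a wave that was not called is poorly defined. In hypothalamus the gap was 9.64 h (SE 2.35 h) on CT18 to CT40 and 1.69 h (SE 2.12 h) on CT42 to CT64.

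Because both genes are read on every array, their waves can be compared through the log2 ratio of Cry1 to Cry2. Whatever shifts both genes alike cancels in it. This ratio had a 24 h wave in 12 of 12 tissues (permutation test with 100000 shuffles of the time points, two-sided, adjusted over the 12 tissues). The raw p was 1e-05, the smallest that the shuffles can give, in 7 tissues (adjusted p = 1.71e-05), and the weakest adjusted p was 0.0264 in hypothalamus (1.15-fold). The hypothalamus call ended without the array of CT18 (1.11-fold, adjusted p = 0.0889) or of CT52 (0.0538), and on CT42 to CT64 alone (0.742), and was at 0.0494 without the 3 hypothalamus arrays that stood apart, CT18 among them. A wave in the ratio shows that the 2 waves differ in size or in time, and does not tell which.

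In liver the log2 ratio ran from -2.03 at CT54 through -0.42 to 0.38 at CT20, a fitted 3.69-fold swing (2.94 to 4.63). In heart, where both genes had nearly the same fold, the ratio still swung 1.80-fold (1.54 to 2.09), from -1.42 at CT56 to -0.23 at CT48. The ratio was highest between CT17.1 in brainstem and CT21.1 in heart, after the Cry1 peak in every tissue. With Cry2 peaking hours before Cry1, the fitted ratio has to peak after Cry1, so this order restates the gap. In hypothalamus the array of CT18 gave the highest ratio, -1.51, and the lowest Cry2 value, 8.92; its median correlation to the other arrays was 0.985 against 0.997.

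Both waves differed between tissues. The test of 22 tissue by wave coefficients in 1 fit to all 288 arrays gave an adjusted p of 9.64e-38 for Cry1 and 6.07e-15 for Cry2, against 49.6% of all genes called. The ratio wave also differed (F = 10.2, permutation p = 1e-05, the smallest that 100000 shuffles of the tissue labels within time points can give). Whether the gap in time differs between tissues apart from the size of the waves was not tested. When each tissue's values were replaced by ranks, the adjusted p was 0.0576 for Cry1 and 0.00339 for Cry2. Ranks take out the log2 scale, but a wave that stands clearer of its scatter still spans more ranks. The rank test therefore does not separate size from time either.

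Against the mean wave of the other 11 tissues, Cry1 differed in 8 tissues and Cry2 in 8. Liver stood furthest out for Cry1, with 3.72-fold at CT18.8 against a mean wave of 1.57-fold at CT17.3 (adjusted p = 6.83e-30, with 26.7% of all genes called). Both genes differed in kidney and lung (5.03% and 5.76% of genes called), and Cry1 differed in hypothalamus (1.99%), brainstem (1.01%) and cerebellum (0.607%). White adipose (15.8%) had a Cry1 wave of 1.95-fold against 1.66-fold and a Cry2 wave of 1.25-fold at CT15.4 against 1.38-fold at CT11.7. Skeletal muscle (8.83%) had a Cry1 wave of 1.19-fold against 1.73-fold and a Cry2 wave of 1.55-fold at CT9.97 against 1.35-fold at CT12.1. Cry2 also differed in hypothalamus, brainstem and heart (6.21%), and in liver, where it had 1.48-fold at CT13.5 against 1.35-fold at CT11.7. Neither gene passed in adrenal gland (11.3%), aorta (6.44%) or brown adipose (16.2%), and Cry2 did not in cerebellum. In adrenal gland both passed with array weights (adjusted p = 0.0134 for Cry1 and 0.0380 for Cry2) and after quantile normalization (0.00598 and 0.0436). The test takes cosine and sine together, so it does not separate the size of a wave from its time.

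The waves were also fitted to CT18 to CT40 and to CT42 to CT64 apart, with 12 arrays each. Cry1 was called in 8 tissues on each day, and on neither in brainstem, cerebellum, skeletal muscle and hypothalamus. Cry2 was called in 8 tissues on the first day and in 3 on the second, heart, kidney and lung. The liver Cry1 wave was 3.83-fold at CT19.0 and 3.63-fold at CT18.7, on the 2 days, and the kidney Cry2 wave 1.86-fold at CT13.4 and 1.73-fold at CT12.8. The median change of the peak between days was 0.479 h for Cry1, with 10 of 11 tissues within 2 h, and 0.698 h for Cry2, with 9 of 10 within 2 h. The exceptions were Cry1 in cerebellum (2.46 h later on the second day) and Cry2 in white adipose (2.08 h later). White adipose was also the only 1 of 10 in which Cry2 came later on the second day. The gap was positive on each day in 10 of 10 tissues. It ran from 2.75 h in cerebellum to 7.19 h in skeletal muscle on the first day. On the second it ran from 2.32 h in white adipose to 10.2 h in skeletal muscle. Each of these extremes rests on a wave not called that day: Cry1 in cerebellum (adjusted p = 0.110) and skeletal muscle (0.463), then Cry2 in white adipose (0.155) and both genes in skeletal muscle (0.0704 and 0.0555). Both waves were called on the second day only in heart, kidney and lung. The peak of a wave not called is poorly defined, which also limits the changes of peak above.

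No wave of either gene differed between days by limma's test of the day by wave coefficients (0 of 24 called, 0 at an unadjusted p under 0.05, and 0% of all genes called in each tissue), and the rank test also called 0. A test that called no gene in any tissue does not show that the days were alike. The mean level shifted between days in 0 of 24 after adjustment and in 3 at an unadjusted p under 0.05. In kidney the second day was higher by 0.13 log2 units for Cry1 (adjusted p = 0.143) and by 0.13 for Cry2 (0.107), and in skeletal muscle by 0.08 for Cry1 (0.390). Of all genes, 4.76% shifted in kidney, 2.12% in skeletal muscle, 0.0702% in brainstem and 0% elsewhere.

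Levels were compared between tissues within each gene and without a test, because the deposited values appear to have been normalized tissue by tissue. In bulk RNA, fewer cells of a type and less RNA per cell cannot be told apart. Cry1 was highest in cerebellum (mean log2 intensity 8.58, SD 0.18, n = 24) and liver (8.44, SD 0.71), followed by lung (7.95, SD 0.44), skeletal muscle (7.90, SD 0.12), brown adipose (7.61, SD 0.33) and heart (7.55, SD 0.28). Hypothalamus (7.42, SD 0.08), white adipose (7.41, SD 0.40), adrenal gland (7.35, SD 0.37), aorta (7.35, SD 0.33), kidney (7.11, SD 0.45) and brainstem (7.06, SD 0.12) were lower. None of the 11 pairs of neighbours in this order differed by more than the larger of their SDs, which hold the daily wave as well as noise.

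Cry2 was highest in cerebellum (9.61, SD 0.10) and hypothalamus (9.34, SD 0.11), the only neighbours in its order that differed beyond their spread. Lung (9.15, SD 0.27), liver (9.08, SD 0.28), white adipose (8.84, SD 0.17), skeletal muscle (8.61, SD 0.28) and brainstem (8.52, SD 0.08) came next. Brown adipose (8.44, SD 0.19), aorta (8.43, SD 0.18), heart (8.33, SD 0.30), adrenal gland (8.10, SD 0.31) and kidney (7.87, SD 0.33) were lowest. Kidney thus had the largest Cry2 wave and the lowest Cry2 level. After quantile normalization over all arrays 7 of 12 tissues kept their rank for each gene, with moves of up to 3 places for Cry1 and 2 for Cry2, and cerebellum stayed highest for both.

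**Figure D4:**
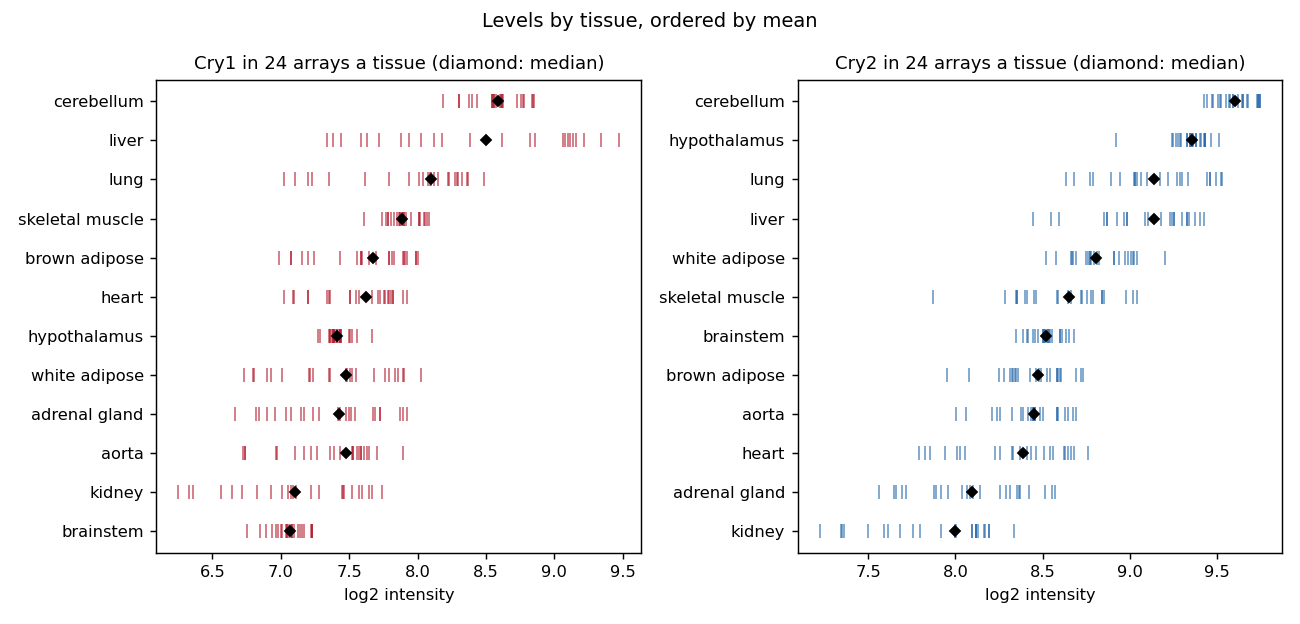
Each tick is an array, with its log2 intensity on the x axis, for Cry1 (left, red) and Cry2 (right, blue), and diamonds are medians. Tissues are ordered by their mean. Cerebellum is at the top for both genes, and the Cry1 arrays of liver spread widest, from 7.34 to 9.47.

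The labelled tissues held their own markers. Each marker list of a labelled tissue was highest in that tissue, with means from 9.26 for brainstem to 13.6 for hepatocytes in liver. Of the 288 arrays, 20 in 9 tissues stood apart by a marker list or by their correlation to the rest, such as white adipose at CT22, where lung epithelium markers reached 10.96 against a median of 5.64, and heart at CT26, where hepatocyte markers reached 10.5 against 6.45. Without all 20, Cry1 was called in 10 tissues and Cry2 in 10, and the white adipose gap was 2.86 h. Where markers of another tissue varied over many arrays, no array stood apart by this measure. Skeletal muscle markers ran from 6.67 to 11.8 in brown adipose, and brown adipocyte markers averaged 10.45 in aorta against 10.74 in brown adipose. Hepatocyte markers ran from 6.91 to 12.4 in adrenal gland and from 7.56 to 10.5 in white adipose. White adipose also had the lowest median correlation between arrays of the 12 tissues, 0.981. With the skeletal muscle markers as a covariate, the brown adipose folds were 1.72 for Cry1 and 1.38 for Cry2 and both calls held (adjusted p = 6.64e-06 and 0.00251). The part of hepatocytes in adrenal gland and white adipose and of brown fat in aorta was not tested.

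The genes that work with cryptochromes were counted by role. Of all genes, 0.0702% were called in 12 tissues, 0.145% in at least 11, 0.236% in at least 10 and 1.52% in at least 7. Lower counts were common, with 9.59% of all genes called in at least 4 tissues, 18.1% in at least 3 and 33.8% in at least 2. Of the repressor partners, which bind cryptochromes or add to their repression, all 4 (Per1, Per2, Per3 and Ciart) were called in every tissue, with a median fold from 1.44 in hypothalamus to 4.71 in liver. The median over all genes was 1.06 and 1.09 in these tissues. Per2 ran from 1.35-fold to 4.40-fold in liver, and Ciart, also known as Chrono, from 1.61-fold to 10.7-fold in liver. Of the activators that cryptochromes inhibit, 3 were measured: Arntl was called in 12 tissues, Clock in 11 and Arntl2 in 0, where no fold exceeded 1.12. Of the repressors that compete for E-boxes, Bhlhe41 was called in 12 tissues and Bhlhe40 in 7.

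Of the receptors at the ROR element, the repressors Nr1d1 and Nr1d2 were called in 12 tissues, and of the activators Rora was called in 3 and Rorb in 0. Nr1d1 reached 21.97-fold in lung. Among factors at the D-box, Dbp was called in 12 tissues, Tef and Hlf in 11 and the repressor Nfil3 in 10. Of the nuclear receptors reported to bind cryptochromes, Nr3c1, the glucocorticoid receptor, was called in 0, and Ppard in kidney (2.68-fold at CT22.9) and liver (2.48-fold at CT21.5).

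Of 16 genes listed for cryptochrome turnover and modification, 15 were measured. The number called was 9 in kidney (beside 25.8% of all genes), 8 in liver (26.8%), 6 in lung (20.9%) and 4 in brown adipose (16.5%). It was 3 in heart (8.64%), cerebellum (5.49%) and white adipose (4.85%) and 2 in adrenal gland (5.89%). It was 1 in skeletal muscle (5.12%), aorta (5.09%), brainstem (4.78%) and hypothalamus (1.8%), and that 1 was Usp2. A count of 1 in 15 is near the background in skeletal muscle, aorta and brainstem. In hypothalamus it is above the background, through this gene alone. The list's median fold lay between 1.03 in cerebellum and 1.15 in liver, beside 1.04 and 1.09 over all genes. The count in every tissue included Usp2, a deubiquitinase reported to act on clock proteins, from 1.17-fold in cerebellum to 5.90-fold in liver. Skp1 and Rbx1, shared parts of ubiquitin ligases, and Dtl, an adaptor of the CUL4 ligase, were called in 0 tissues, with folds up to 1.13. Fbxl21, an F-box protein that binds cryptochromes, was called in 4: adrenal gland (1.60-fold, CT22.6), kidney (1.53-fold, CT7.44), liver (1.28-fold, CT1.47) and white adipose (1.21-fold, CT6.45). Called members did not share a peak time: in liver Ddb1, a CUL4 adaptor, peaked at CT12.0 and Cul1, a ligase scaffold, at CT1.34.

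Set beside 5 clock genes, Cry2 peaked between Dbp and Per2 and Cry1 between Per2 and Nfil3, by the medians. Cry2 peaked a median of 5.20 h after Nr1d1 and 2.30 h after Dbp, and -1.17 h from Per2, before it (10 tissues). Cry1 peaked a median of 10.7 h after Nr1d1, 7.81 h after Dbp and 4.08 h after Per2 (11 tissues). It preceded Nfil3 by a signed -3.28 h (10 tissues) and Arntl by -4.79 h (11 tissues). The spread over tissues was similar for these distances, with SDs from 1.302 h for Cry2 and Per2 to 1.96 h for Cry1 and Nr1d1.

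White adipose and skeletal muscle differed here too. In white adipose Cry2 came 1.97 h after Per2 (SE 0.730 h), 5.18 h after Dbp and 7.98 h after Nr1d1, the longest of the 10 tissues in each case. In skeletal muscle Cry2 came 0.291 h from the Dbp peak (SE 0.495 h), and Cry1 came 7.29 h after Per2 (0.739 h) and 14.04 h after Nr1d1, the longest of 11. Per2 (CT11.3) and Nr1d1 (CT4.54) themselves peaked earlier there than in any other tissue. Against Dbp, Cry1 in skeletal muscle was not extreme, at 8.90 h beside 9.36 h in liver. Both cryptochrome calls in skeletal muscle were lost with the lymphocyte covariate. In liver Cry1 came closest to Arntl, at -2.82 h (0.369 h).

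**Figure D5:**
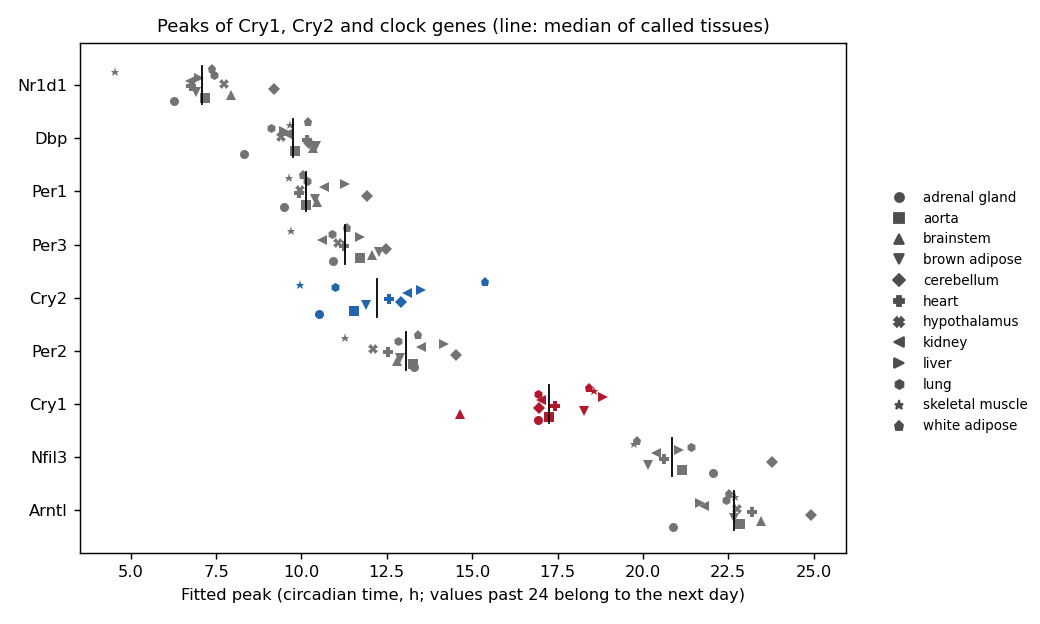
Each symbol is the fitted peak, in hours of circadian time on the x axis, of a gene in a tissue where its wave was called, and the line is the median. Cry2 (blue) lies between Per3 and Per2, with white adipose late at CT15.4, and Cry1 (red) lies between Per2 and Nfil3, with brainstem early at CT14.6.

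The patterns most like each gene were ranked by the mean, over 12 tissues, of the Pearson correlation over the 24 arrays of a tissue. For Cry2 they were mostly clock genes: Tef (0.798), Usp2 (0.774), Per3 (0.766), Tspan4 (0.762), Hlf (0.746) and Per2 (0.738). For Cry1 the likeness was lower and none of the 6 belonged to the lists used here: Lonrf3 (0.718), Tsc22d3 (0.609), Fmo1 (0.609), Lrrc58 (0.593), Fmo2 (0.580) and P4ha1 (0.555). Lonrf3 correlated with Cry1 at 0.965 in liver and 0.478 in brainstem. Tsc22d3, a gene known to respond to glucocorticoids, kept between 0.475 in heart and 0.792 in kidney. Cry1 and Cry2 themselves correlated at a mean of 0.156, from -0.31 in skeletal muscle, where their gap was widest, to 0.594 in white adipose, where it was shortest. These values share arrays and depend on peak time, so the last of them restates the gap.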

How the data were processed

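Expression arrays of 12 mouse tissues, 24 a tissue, were analysed. The deposited values are linear intensity, made by the authors with Affymetrix Expression Console and GCRMA, per the submitters' processing notes, and versions are not given in the sources used here. Array medians lay between 95.2 and 106.6 and spreads differed between tissues, so normalization appears to have been done by tissue. Log2 was taken with no pseudocount, and no probe set was left out for low intensity. Probe sets with 1 symbol gave 19938 genes, the brightest standing for genes with several. Waves were fitted with limma 3.58.1 in R 4.3.3 (24 h cosine and sine, moderated F, trend on mean expression), which was tested on simulated data, and gaps carry delta-method errors that use the residual covariance of both genes. The planned tests assumed log2 values, so this step was needed. The members and lists, and the rule for named genes (members by role that pass in the most and fewest tissues, 5 reference clock genes, and the 6 genes most like each cryptochrome), were chosen with earlier results of these data known. Some listed genes were not analysed here. The number of arrays limits the precision. Alternatives changed the scale, covariates, arrays, weights, filter, normalization, period and model.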

Additional observations from a re-analysis of the deposited data

Results flagged for a closer look

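The results below are those in which the wave of a cryptochrome differed between tissues by a test of the difference itself (limma, all 288 arrays, adjusted over all genes, or permutation for the ratio). Over all 12 tissues the adjusted p was 9.64e-38 for Cry1 and 6.07e-15 for Cry2, and the permutation p for the ratio wave was 1e-05, the smallest possible.

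Against the mean wave of the other 11 tissues, with size and time tested together, Cry1 had a higher fold in liver (3.72-fold, adjusted p = 6.83e-30), kidney (2.28-fold, 8.52e-05), lung (2.06-fold, 0.0165) and white adipose (1.95-fold, 0.0408). Its fold was lower in hypothalamus (1.09-fold, 1.33e-09), brainstem (1.17-fold, 1.09e-07), skeletal muscle (1.19-fold, 4.88e-06) and cerebellum (1.27-fold, 0.00677). The white adipose call was lost without the arrays that stand apart (0.0789) and with a straight line over time as a covariate (0.102). Adrenal gland passed with array weights (0.0134) and after quantile normalization (0.00598).

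Cry2 differed in kidney (1.79-fold at CT13.1, adjusted p = 2.13e-05), heart (1.65-fold at CT12.6, 0.0187), lung (1.64-fold at CT10.97, 0.0144), skeletal muscle (1.55-fold at CT9.97, 0.00418) and liver (1.48-fold at CT13.5, 0.0350). It also differed in brainstem (1.10-fold, 0.0195), hypothalamus (1.13-fold, 0.00583) and white adipose (1.25-fold at CT15.4, 0.000838). The mean wave of the others lay between 1.33-fold and 1.39-fold and between CT11.7 and CT12.1. Adrenal gland passed without the arrays that stand apart (0.000566), with array weights (0.0380), after quantile normalization (0.0436) and with the straight line (0.0407). With the straight line the calls in brainstem (0.0872) and heart (0.0607) were lost, and after quantile normalization that in liver (0.170). On ranks none of these calls held for either gene. The 12 contrasts share arrays and are not independent of each other. They also share 1 estimate of spread although tissues scattered unequally, so p-values may be too small where scatter was wide (residual SD of Cry1 0.248 in lung and of Cry2 0.199 in liver).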

How the results depend on the processing

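Cry1 was called in 8 to 11 tissues and Cry2 in 8 to 11 under every alternative run but 1: on CT42 to CT64 alone, with 12 arrays a tissue, Cry2 was called in 3. The median gap stayed between 5.22 h and 6.20 h under these alternatives. On ranks, which take out the log2 scale, the difference of the Cry1 wave between tissues missed (adjusted p = 0.0576). By limma on ranks, 0 tissues differed from the mean of the others for Cry1 and 0 for Cry2 (2 and 3 at an unadjusted p under 0.05). Quantile normalization over all arrays kept the level rank of 7 tissues for Cry1 and 7 for Cry2. Leaving out each time point in turn gave 10 to 11 tissues for Cry1, 9 to 10 for Cry2, 11 to 12 for the ratio (hypothalamus lost without CT18 or CT52) and a median gap of 5.19 to 5.78 h. No result reversed. Over genes above the tissue median, Cry1 was tested in 11 tissues. Another probe set could not be tried, since each gene had 1. Over alternatives that use both days, adjusted p-values ran from 0.00516 to 0.140 for Cry1 in brainstem, 0.00144 to 0.0576 in cerebellum and 0.00217 to 0.0832 in skeletal muscle. For Cry2 they ran from 2.19e-05 to 0.0511 in adrenal gland, 0.0167 to 0.137 in brainstem, 3.69e-06 to 0.134 in skeletal muscle and 0.00250 to 0.0707 in white adipose. Small waves limit brainstem and hypothalamus, where folds reached at most 1.17 and residual SDs lay between 0.07 and 0.10.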
